A study of Mus musculus with 30 samples.

Results

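The genes described here are 35 enzymes and regulators of cholesterol and fatty acid synthesis, listed by name. The list was drawn up with earlier results of these data known. They were found through the gene symbols of the probe sets of an Affymetrix mouse array, on which a probe set is a group of short oligonucleotides that report the transcripts of a gene. Of the 35 genes, 34 passed the filter on low intensity, among 13089 genes tested and 18193 genes named. In the annotation used, no probe set carried the symbol of Acat2 alone. Its expression was therefore not analysed, and it enters only the promoter counts below. The 34 genes had 80 probe sets, up to 6 for a gene, and the brightest one on average stood for its gene.

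Cells make cholesterol from acetyl-CoA by way of mevalonate, isoprenoids, squalene and lanosterol, and they make fatty acids from the same precursor by way of malonyl-CoA. The transcription factors SREBP-1 and SREBP-2, encoded by Srebf1 and Srebf2, switch on these enzymes. Scap carries them to the Golgi when membrane sterol is low, and Insig1 and Insig2 hold them in the endoplasmic reticulum when sterol is plentiful. In the lung, alveolar type 2 cells use these pathways to supply the lipid of surfactant.

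Total RNA came from whole lungs of 30 C57BL/6 mice, 1 array per animal, at 21 days (juvenile) or 16 weeks (adult). Untreated age-matched mice were the controls. Ventilated mice (MV) received 80 breaths per minute at a tidal volume of 15 mL/kg, an oxygen fraction of 30% and an end-expiratory pressure of 2 cm H2O over 2 hours. Mice given LPS, the lipopolysaccharide of E. coli 0111:B4, breathed an aerosol made from 20 mL of a 0.1 mg/mL solution for 30 minutes and then had food and water during 2 hours of spontaneous breathing. LPS+MV mice were ventilated directly after the aerosol. Each group held 4 animals except juvenile MV and juvenile LPS+MV, which held 3.  Access to food is stated for the LPS mice alone, and what the other groups had eaten is not given.

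Several facts about the arrays bear on what follows. Xist, the RNA of the silenced X chromosome of female cells, was high on 11 arrays, with intensities of 425 to 771, and low on 19, with 18.2 to 27. The labels give no sex. High Xist was found on all 4 adult MV arrays, on 3 of 4 adult LPS+MV arrays (not replicate 4), on replicate 3 of the juvenile controls, on replicate 3 of juvenile MV and on replicates 2 and 3 of juvenile LPS+MV. No adult control, adult LPS or juvenile LPS array had it. Markers of alveolar type 2 cells were bright on every array, with a mean log2 level over 9 of 10 listed markers of 11.88 to 12.11 in juvenile controls and 12.03 to 12.09 in adult controls. In every treated group it stood below every control of its age. In adults it was 11.71 to 11.88 with MV, 11.53 to 11.64 with LPS and 11.34 to 11.51 with LPS+MV, and in juveniles 11.74 to 11.84, 11.50 to 11.79 and 11.43 to 11.52. The markers did not move as one. In adult LPS against control, Etv5 read -2.16, Abca3 -0.98, Sftpb -0.72 and Lpcat1 -0.62 on the log2 scale. Sftpd read 0.43 and Sftpa1 0.13. The summed intensity of the markers was 57044 to 61113 in adult MV and 56721 to 60078 in adult controls. In whole tissue, fewer cells of a type and less RNA per cell cannot be told apart.

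The promoters of 5 genes on which the results turn are shown first. Among 39 promoter entries in RefSeq, on build GRCm38.p6, 29 of the 35 genes were represented, each entry holding 250 bases before and 50 bases after a transcription start. The bases below are the 150 before the start, 5′ to 3′ on the gene's strand. They are from chr13:119690201-119690350 (plus strand) for Hmgcs1, chr13:8885456-8885605 (plus) for Idi1, chr5:4104698-4104847 (minus) for Cyp51, chr8:64733579-64733728 (minus) for Msmo1 and chr3:129532236-129532385 (plus) for Elovl6. Capitals mark TCACNCCAC, the only form of the sterol regulatory element that was searched, and the NF-Y box CCAAT. Both were searched on both strands, so that a CCAAT on the other strand reads as its reverse complement.
Hmgcs1: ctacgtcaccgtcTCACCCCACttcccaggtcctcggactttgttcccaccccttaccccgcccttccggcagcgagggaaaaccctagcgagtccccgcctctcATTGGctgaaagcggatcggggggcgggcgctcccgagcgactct
Idi1: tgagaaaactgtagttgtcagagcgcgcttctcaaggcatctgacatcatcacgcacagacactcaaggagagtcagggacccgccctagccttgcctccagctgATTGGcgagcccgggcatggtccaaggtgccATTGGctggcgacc
Cyp51: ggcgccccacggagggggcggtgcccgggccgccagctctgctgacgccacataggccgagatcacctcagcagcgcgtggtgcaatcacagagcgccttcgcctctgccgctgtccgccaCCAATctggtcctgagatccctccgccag
Msmo1: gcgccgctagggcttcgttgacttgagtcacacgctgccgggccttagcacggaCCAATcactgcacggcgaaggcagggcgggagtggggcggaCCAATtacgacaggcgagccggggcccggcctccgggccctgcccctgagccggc
Elovl6: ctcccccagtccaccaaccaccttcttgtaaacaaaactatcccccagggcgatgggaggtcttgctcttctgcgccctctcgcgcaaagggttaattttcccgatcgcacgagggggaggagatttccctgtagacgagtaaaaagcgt
The first 4 are sterol enzymes that were higher in ventilated adults, and Elovl6 is the elongase that was higher with LPS. A TCACNCCAC match was found in the whole 300-base window of Hmgcs1 alone among these genes, 137 bases before the start, and in 1.24% of all 32851 promoter entries. CCAAT was found in 14 of 18 entries of the sterol enzymes, against 37.4% of all entries, in 5 of 10 entries of the regulators and in 5 of 11 entries of the fatty acid enzymes. The GC box GGGCGG was also searched on both strands and counted where it overlapped another motif. It was found in 15 of 18 entries of the sterol enzymes and in 35.7% of all entries. In the regulators it was found in 8 of 10 entries, and in the fatty acid enzymes in 6 of 11. A match is a string of letters and shows no binding. The lack of a match does not show that a promoter has no sterol regulatory element, since other forms were not searched.

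All values below are the deposited intensities, on a linear scale. Fold changes are differences of log2(intensity + 32), a scale that understates the change of dim genes, and are given ± SE. A gene rose or fell where its adjusted p was under 0.05 in limma's moderated test, adjusted by Benjamini and Hochberg over the 13089 genes.

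Untreated lungs of the 2 ages differed in 2 of the 34 genes, where 25.2% of all genes passed (15.1% higher and 10.1% lower in adults). Srebf1 had intensities of 213, 242, 278 and 411 in juvenile controls and 388, 562, 521 and 516 in adult controls. The highest juvenile lay within the adult range, and the other juveniles lay below it. The adult level was higher by 0.76 ± 0.13 (adjusted p = 7.6e-05). Elovl1, an elongase of saturated very long chains, was higher in adults by 0.47 ± 0.08 (adjusted p = 1.7e-04), with no overlap between the groups. None of the 17 sterol enzymes tested passed in limma (1 had an unadjusted p under 0.05), and their median difference was -0.01.

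Ventilation of adults was followed by higher transcripts of most sterol enzymes from Hmgcs1 to Msmo1. Of the enzymes that act after Msmo1, Sc5d alone passed. Of the 34 genes, 13 rose and 6 fell, where 31.5% of all genes passed. Among the 17 sterol enzymes, 11 rose and none fell (12 higher and 2 lower at an unadjusted p under 0.05 in limma), with a median change of 0.49 against -0.06 over all genes, of which 7.17% rose and 24.3% fell. Groups did not overlap, in either direction, for 13 of the 17, against 30.5% of all genes. Dhcr7 was among the 13, with every MV array below every control. The rise spanned the mevalonate arm (Hmgcs1, Pmvk, Mvd, Idi1 and Fdps) and the squalene arm (Fdft1, Sqle, Lss, Cyp51, Msmo1 and Sc5d).

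Hmgcs1 encodes the synthase that makes HMG-CoA and had intensities of 899, 852, 930 and 774 in adult controls and 1799, 1546, 1745 and 1325 in adult MV. Every MV array lay above every control, and the gene rose by 0.86 ± 0.16 (adjusted p = 1.9e-04). Pmvk, phosphomevalonate kinase, had 127, 141, 166 and 208 in controls and 988, 580, 499 and 590 with MV. Its lowest MV array was above the highest control, and the change of 1.83 ± 0.26 (3.55-fold, adjusted p = 1.1e-05) had the largest size among the 34 genes in this comparison. Replicate 1 was the highest of the MV arrays.

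Fdft1, squalene synthase, had 291, 245, 245 and 232 in controls and 485, 507, 509 and 460 with MV, a rise of 0.88 ± 0.13 (adjusted p = 3.2e-05). Cyp51, the lanosterol demethylase, had 115, 109, 99.1 and 93.6 in controls and 317, 256, 262 and 234 with MV, a rise of 1.13 ± 0.17 (2.19-fold, adjusted p = 2.3e-05). Msmo1, the methylsterol oxidase that acts after Cyp51, had 296, 308, 280 and 270 in controls and 641, 529, 725 and 646 with MV, a rise of 1.05 ± 0.16 (adjusted p = 2.9e-05). In none of these genes did a control array reach the lowest MV array. The other probe sets read 0.80 to 1.04 for Hmgcs1, 0.89 for Cyp51, 0.78 for Idi1 and 0.77 for Fdft1.

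Smaller rises were seen for Idi1, isopentenyl diphosphate isomerase, at 0.79 ± 0.17 and for Sqle, squalene epoxidase, at 0.74 ± 0.15. Lss, which closes squalene epoxide to lanosterol, rose by 0.56 ± 0.11, and Mvd, the decarboxylase of the mevalonate arm, by 0.43 ± 0.13. Fdps, farnesyl diphosphate synthase, rose by 0.49 ± 0.18 (adjusted p = 0.035), a call lost without any 1 of 6 arrays, with adjusted p of 0.056 to 0.091. Sc5d rose by 0.35 ± 0.13 (adjusted p = 0.034), was lost without any 1 of 4 arrays (0.076 to 0.11), and its second probe set read -0.08. The enzymes that did not pass were Mvk, Tm7sf2, Nsdhl, Hsd17b7, Ebp and Dhcr7, which read from -0.22 to 0.25.

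**Figure D1:**
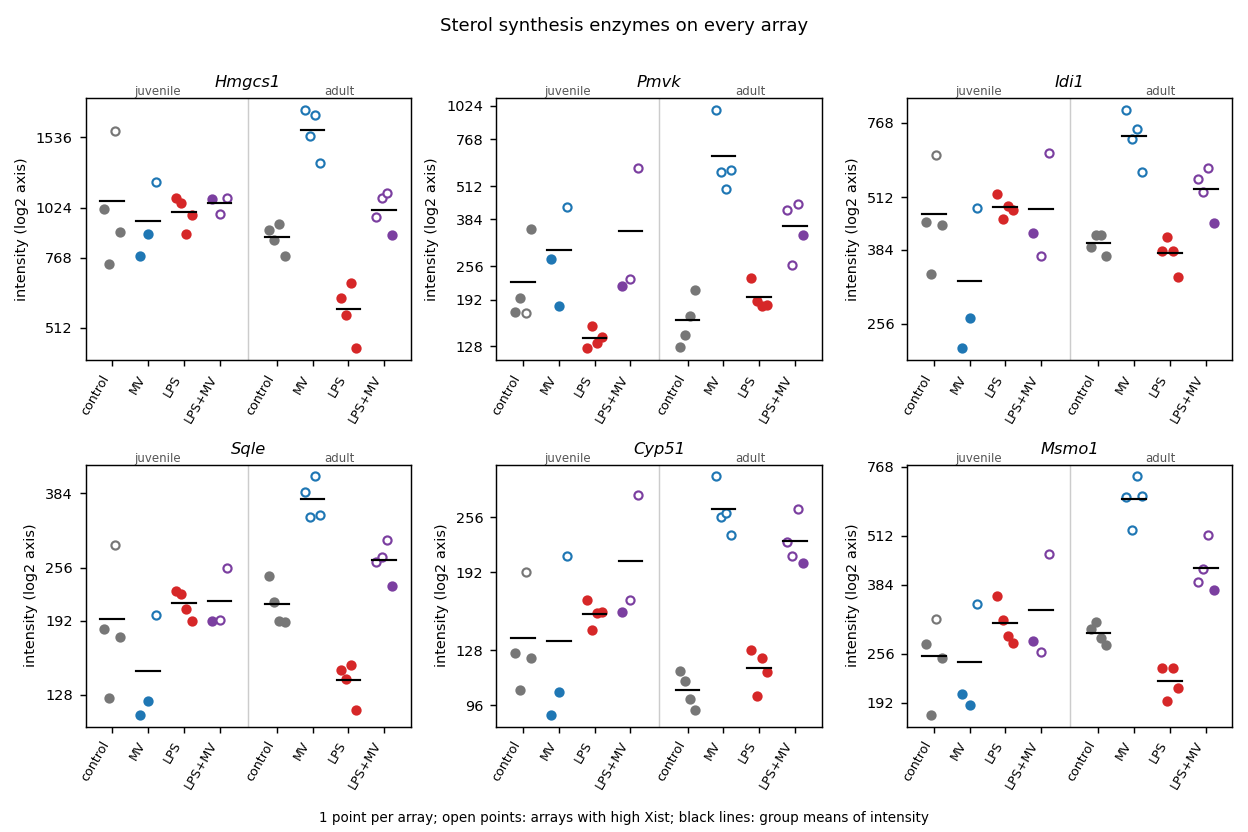
Intensity (log2 axis) of 6 sterol enzymes on each of 30 arrays by group, with open points for arrays with high Xist and black lines for group means. In all 6 panels the adult MV arrays, all of them open, lie above every adult control.

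Among the regulators and the fatty acid enzymes of ventilated adults, 6 genes fell and 2 rose. Srebf1 fell from 388, 562, 521 and 516 to 230, 246, 234 and 257, a change of -0.94 ± 0.13 (adjusted p = 8.0e-06) with no overlap. Srebf2, whose product drives sterol enzymes above all, fell by 0.34 ± 0.10 on the log2 scale (adjusted p = 0.008). Its second probe set read -0.17, and Srebf2 did not pass after quantile normalization. Insig2 rose by 0.20 ± 0.07 (adjusted p = 0.041). The Insig2 call was lost without any 1 of 5 arrays (0.073 to 0.1), and its other probe sets read 0.56 and 0.03. Of the 12 fatty acid enzymes, 4 fell and 1 rose, and the median was -0.09.

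Acaca, which makes malonyl-CoA, fell by 0.50 ± 0.18 on the log2 scale, and the desaturase Scd2 by 0.47 ± 0.11. The desaturases Fads2 and Fads1, which act on polyunsaturated chains, fell by 0.33 ± 0.12 and 0.32 ± 0.10. The acyl-CoA ligase Acsl4 rose by 0.39 ± 0.08 (adjusted p = 7.2e-04). The calls of Acaca and Fads2 were each lost without any 1 of 5 arrays (adjusted p up to 0.082 and 0.14), and also after quantile normalization. That of Fads1 was lost without MV replicate 3 or control replicate 2 (0.084 for both). Fasn, the fatty acid synthase, and Scd1 did not pass, and the probe sets of Scd1 read 0.10 and 0.73.

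Markers of other cells moved in the same comparison. Over 7 of 8 listed markers of alveolar macrophages the mean log2 level was 8.84 to 9.03 in adult MV and 8.61 to 8.74 in controls. Of these markers Mrc1 alone passed in limma (0.29 ± 0.11, adjusted p = 0.041), and Fabp4 read 0.72 ± 0.44 (0.22). Over 8 markers of alveolar type 1 cells the mean log2 level was 10.82 to 11.07 against 11.32 to 11.43. Over 6 endothelial markers it was 9.51 to 9.81 against 9.89 to 10.03. None of these ranges overlapped, and their part in the result was not tested.

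Most sterol enzymes read higher with high Xist, but they vary together and none passed for that difference. Because every adult MV array had high Xist and no adult control did, ventilation and that state cannot be told apart within this comparison. The difference of high from low Xist was taken from a fit of all 30 arrays with the 8 groups. It was positive for 16 of the 17 sterol enzymes, with a median of 0.33, and none passed. Over all 13089 genes, 5778 were positive, the median was -0.01 and 8 passed. This difference rests only on the groups that held both states: juvenile control, juvenile MV, juvenile LPS+MV and adult LPS+MV. The term for high Xist carries it over to adult MV. Whether it holds there cannot be tested, since no adult MV array had low Xist. With a term for high Xist in the fit, 4 sterol enzymes rose in adult MV and 1 fell, with a median of 0.10, and 13.1% of all genes passed. Pmvk rose by 1.53 ± 0.33 (adjusted p = 0.0037), Msmo1 by 0.65 ± 0.18 (adjusted p = 0.016), Cyp51 by 0.62 ± 0.16 (adjusted p = 0.014) and Fdft1 by 0.49 ± 0.14 (adjusted p = 0.018). Hmgcs1 then read 0.46 ± 0.17 (adjusted p = 0.07), Idi1 0.27 ± 0.17 (0.32) and Sqle 0.30 ± 0.15 (0.19), and Dhcr7 fell by 0.41 ± 0.13 (0.034). Srebf1 fell with this term too, at -0.99 ± 0.17 (adjusted p = 5.5e-04), as did Srebf2, Acaca and Fads1. Acsl4 read 0.31 ± 0.11 (adjusted p = 0.052), Scd2 -0.37 ± 0.14 (0.073), Fads2 -0.37 ± 0.15 (0.11) and Insig2 0.24 ± 0.10 (0.1).

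The mean log2 level of the 17 sterol enzymes was 7.69 to 7.78 on the adult controls and 8.22 to 8.41 on the adult MV arrays. Among juvenile controls the high-Xist array stood at 8.11 and the others at 7.53 to 7.78. In juvenile MV the high-Xist array stood at 7.92 and both others at 7.49. In juvenile LPS+MV the high-Xist arrays stood at 7.77 and 8.17 and the low-Xist array at 7.80, so that high Xist did not go with a higher mean on every array.

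**Figure D2:**
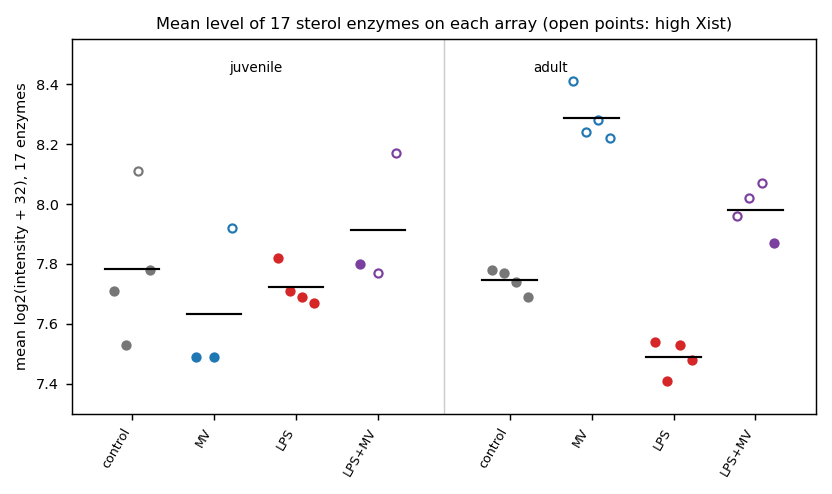
Mean log2(intensity + 32) over 17 sterol enzymes on each array by group, with open points for high Xist and black lines for group means. The adult MV arrays sit between 8.22 and 8.41, above all other arrays, and the adult LPS arrays between 7.41 and 7.54.

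In juveniles, with ventilation alone, none of the 34 genes rose and 6 fell (0 higher and 11 lower at an unadjusted p under 0.05 in limma), where 10.9% of all genes passed (4.41% rose and 6.45% fell). Fads1 had 466, 428, 524 and 538 in controls and 298, 314 and 341 with MV, a fall of 0.57 ± 0.11 on the log2 scale (adjusted p = 0.0015) with no overlap. Hsd17b7, which reduces a keto group in the late sterol pathway, had 164, 137, 228 and 140 in controls and 88.8, 90.2 and 133 with MV. Its groups did not overlap either, although the highest MV array came close to the lowest control, and the change was -0.55 ± 0.12 (adjusted p = 0.0063). Over 9 of 10 listed markers of neutrophils the mean log2 level was 7.76 to 8.17 in juvenile MV and 6.93 to 7.73 in juvenile controls, and its part was not tested. Dhcr7, the last enzyme of cholesterol synthesis, Mvk, mevalonate kinase, Srebf2 and Elovl1 fell by 0.32 to 0.44 on the log2 scale.

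In a fit of only the juvenile MV and control arrays, with fewer arrays for the spread, none of the 6 calls passed (0 of 34 genes in limma, against 11 at an unadjusted p under 0.05 in the fit of all groups). With single arrays left out, Dhcr7 was lost without MV replicate 1 (-0.34, adjusted p = 0.092). Elovl1 was lost without MV replicate 1, MV replicate 2 or control replicate 1 (-0.34, -0.27 and -0.25, adjusted p up to 0.1). Srebf2 was lost without MV replicates 1 or 2 or control replicates 3 or 4 (-0.34 to -0.24, adjusted p up to 0.099). Mvk fell by 0.33, and its second probe set read -0.18. Over the arrays with low Xist, a choice made after seeing the data, 5 members fell, of which Hsd17b7, Dhcr7 and Fads1 had fallen before. The other two were Idi1 (-0.66 ± 0.11, adjusted p = 0.0053) and Fasn (-0.48 ± 0.12, adjusted p = 0.038), with 2 MV arrays against 3 controls. Of all genes, 3.32% passed there.

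The change with ventilation differed between the ages in 10 of the 34 genes, where 6.13% of all genes passed. In 9, all of them sterol enzymes, adults changed upward relative to juveniles, a direction in which 1.3% of all genes passed, against 4.84% in the other. The 2 changes come from separate animals and separate controls. The median difference over the 17 sterol enzymes was 0.60, against -0.04 over all genes.

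Pmvk differed by 1.49 ± 0.38 (adjusted p = 0.019) and had 173, 195, 171 and 352 in juvenile controls and 273, 182 and 427 in juvenile MV, where the groups overlapped. Idi1 differed by 1.31 ± 0.26 (adjusted p = 0.0039) and had 390, 417, 416 and 372 in adult controls against 824, 704, 744 and 587 with MV. In juveniles Idi1 had 447, 336, 643 and 439 in controls and 224, 264 and 483 with MV, so that the 2 low-Xist MV arrays lay below every control. Sqle, which had 245, 213, 192 and 190 in adult controls and 387, 338, 421 and 342 with MV, differed by 1.07 ± 0.22 (adjusted p = 0.0051). Its juvenile values were 183, 126, 290 and 176 in controls and 115, 124 and 198 with MV, and they overlapped.

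Cyp51 differed by 1.19 ± 0.25 (adjusted p = 0.0058), with 126, 104, 192 and 123 in juvenile controls and 91.4, 103 and 209 in juvenile MV. Msmo1 differed by 1.12 ± 0.24 (adjusted p = 0.0063), with 271, 179, 313 and 250 in juvenile controls and 202, 189 and 342 in juvenile MV. Hmgcs1 differed by 0.99 ± 0.23 (adjusted p = 0.013), with 1015, 741, 1599 and 892 in juvenile controls and 773, 880 and 1187 in juvenile MV. In these genes, the highest juvenile value in each group was that of the high-Xist array. Hsd17b7, Fdft1 and Nsdhl, the late-pathway dehydrogenase, differed by 0.80, 0.65 and 0.60, and Srebf1 by -0.66.

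The Pmvk difference was lost without juvenile MV replicate 2 (1.22, adjusted p = 0.085), and those of Fdft1, Nsdhl and Srebf1 without any 1 of 9 to 11 arrays, with adjusted p up to 0.15. In a fit of only the 4 groups compared, Pmvk, Idi1, Sqle, Cyp51, Msmo1 and Hsd17b7 remained. With the term for high Xist, 1.44% of all genes passed and 1 of the 34 genes did, Idi1 at 0.83 ± 0.22 (adjusted p = 0.049). Cyp51 then read 0.72 ± 0.20 (adjusted p = 0.073), Sqle 0.66 ± 0.19 (0.066) and Pmvk 1.21 ± 0.42 (0.14), and the median over the sterol enzymes was 0.34.

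**Figure D3:**
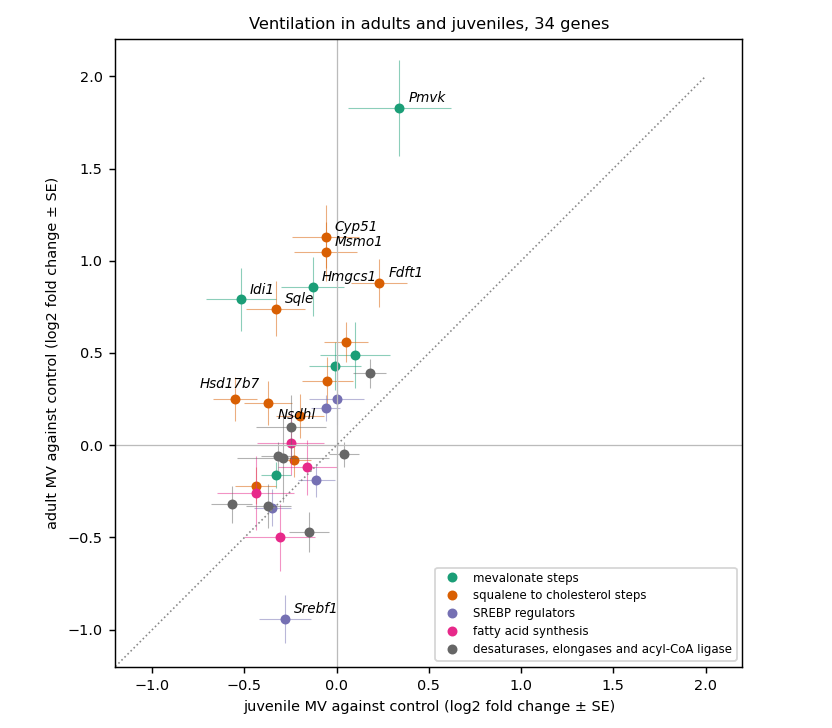
log2 fold change with MV in juveniles (horizontal) and adults (vertical) for 34 genes, with SE bars, colours by role, a dotted line of equal change, and names where the difference between ages passed. Of the 10 named genes, 9 sterol enzymes lie above the line, with Pmvk highest at 1.83 in adults, and Srebf1 lies below it.

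LPS alone was followed in adults by lower transcripts of some enzymes of both pathways and of most regulators. Of 34 genes, 16 fell and 2 rose, where 36% of all genes passed (12.9% rose and 23% fell). The fall took in 6 of 17 sterol enzymes (median -0.21), 6 of 12 fatty acid enzymes (median -0.39) and 4 of 5 regulators (median -0.35), against a median of -0.04 over all genes. Elovl6, the elongase that makes stearate from palmitate, and Insig2 rose. The adult comparisons with control share the control arrays. Every one of these 18 calls held when any 1 array of the groups compared was left out.

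Srebf1 had 203, 208, 222 and 225 with LPS, below every adult control, and fell by 1.09 ± 0.13 on the log2 scale (adjusted p = 1.7e-07). Elovl1 had 3148, 2774, 2888 and 2800 in controls and 1528, 1770, 1632 and 1625 with LPS, a change of -0.81 ± 0.08 (adjusted p = 2.2e-08). Dhcr7 had 79.8, 101, 82.1 and 77.6 in controls and 34.9, 32.2, 36 and 38.1 with LPS, a change of -0.80 ± 0.10 (adjusted p = 9.9e-07). The LPS and control groups were apart in each of these.

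Scd2 had 3124, 2862, 2672 and 2774 in controls and 1618, 1701, 1613 and 1604 with LPS, a change of -0.79 ± 0.11 (adjusted p = 1.6e-06). Fdps had 227, 207, 185 and 182 in controls and 125, 64.7, 114 and 117 with LPS, a change of -0.78 ± 0.18 (adjusted p = 0.0011) in which replicate 2 was the lowest. Elovl6 went the other way, from 41.4, 38.7, 36.3 and 49.4 to 153, 187, 191 and 159, a rise of 1.48 ± 0.24 (adjusted p = 1.9e-05). Its dimmer probe set rose less, by 0.82, and in the same direction.

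The other falls were of Insig1 (-0.67), Fads1 (-0.64), Fasn (-0.59), Hmgcs1 (-0.58), Acly (-0.52), Nsdhl (-0.51), Sqle (-0.50), Mvk (-0.40), Fads2 (-0.40), Srebf2 (-0.35) and Scap (-0.32). Acly makes the cytosolic acetyl-CoA from which both pathways start. The second probe set of Mvk read -0.03. Of the 11 sterol enzymes that rose in ventilated adults, Hmgcs1, Fdps and Sqle fell with LPS. Pmvk (0.26), Cyp51 (0.13), Msmo1 (-0.36), Fdft1 (-0.13), Idi1 (-0.08), Lss (-0.21), Mvd (0.33) and Sc5d (-0.24) did not pass. Over the neutrophil markers the mean log2 level was 9.32 to 10.38 on the adult LPS arrays and 7.54 to 9.81 on the adult controls, of which replicate 4 was the highest. The part of neutrophil and type 2 cell transcripts in these falls was not tested.

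In juveniles LPS alone lowered 7 genes and raised 3, where 22.9% of all genes passed (9.58% rose and 13.3% fell). Elovl6 had 55.4, 43.7, 69 and 52.7 in controls and 265, 199, 264 and 266 with LPS, a rise of 1.68 ± 0.24 (3.21-fold, adjusted p = 3.6e-06) with no overlap. Dhcr7 had 59.2, 63.4, 93.6 and 100 in controls and 46.7, 35.7, 32.8 and 36.3 with LPS, a change of -0.65 ± 0.10 (adjusted p = 2.3e-05). Scd2 had 2615, 2729, 2909 and 2912 in controls and 2049, 2092, 1484 and 1805 with LPS, a change of -0.59 ± 0.11 (adjusted p = 1.3e-04). All LPS arrays lay on one side of all controls for these genes.

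Fads1 had 354, 356, 274 and 279 with LPS, below every juvenile control, and changed by -0.59 ± 0.10 (adjusted p = 6.1e-05). Mvd had 50.3, 47.3, 71.9 and 60.1 in controls and 97.3, 98.5, 96.1 and 91.3 with LPS, a rise of 0.52 ± 0.13 (adjusted p = 0.0042). Elovl1, Fads2, Srebf1 and Mvk fell by 0.48, 0.47, 0.46 and 0.28 on the log2 scale, and Insig2 rose by 0.20. Without control replicate 4, Srebf1 read -0.29 (adjusted p = 0.056), and the call of Insig2 was lost without any 1 of 5 arrays (up to 0.17). Neutrophil markers stood at 8.17 to 8.28 on the juvenile LPS arrays and at 6.93 to 7.73 on the juvenile controls, with no overlap, and type 2 cell markers at 11.50 to 11.79 against 11.88 to 12.11. Their part in these changes was not tested.

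Of the 17 sterol enzymes, 1 rose and 2 fell with LPS over all arrays, and without each array of these groups in turn 1 to 2 rose and 2 to 4 fell. In a fit of the 19 low-Xist arrays alone, 5 rose and 2 fell: Mvd by 0.60, Fdft1 by 0.39, Msmo1 by 0.37, Sqle by 0.34 and Cyp51 by 0.32 upward, and Pmvk (-0.63) and Dhcr7 (-0.59) downward. This choice was made after seeing the data. It took the high-Xist arrays of every group out of the fit and left 3 juvenile controls against 4 LPS arrays, with 21.6% of all genes passing. The change with LPS differed between ages for Srebf1 alone (-0.63 ± 0.18, adjusted p = 0.046), where 3.69% of all genes passed (1.31% higher and 2.38% lower in adults), and the call was lost without any 1 of 13 arrays (up to 0.12) and in a fit of only the groups compared. Over low-Xist arrays the age difference was -0.84 ± 0.15 for Sqle (adjusted p = 0.0039), -0.76 ± 0.16 for Hmgcs1 (0.012), -0.72 ± 0.15 for Msmo1 (0.012) and -0.52 ± 0.13 for Fdft1 (0.029), and 3.51% of all genes passed.

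**Figure D4:**
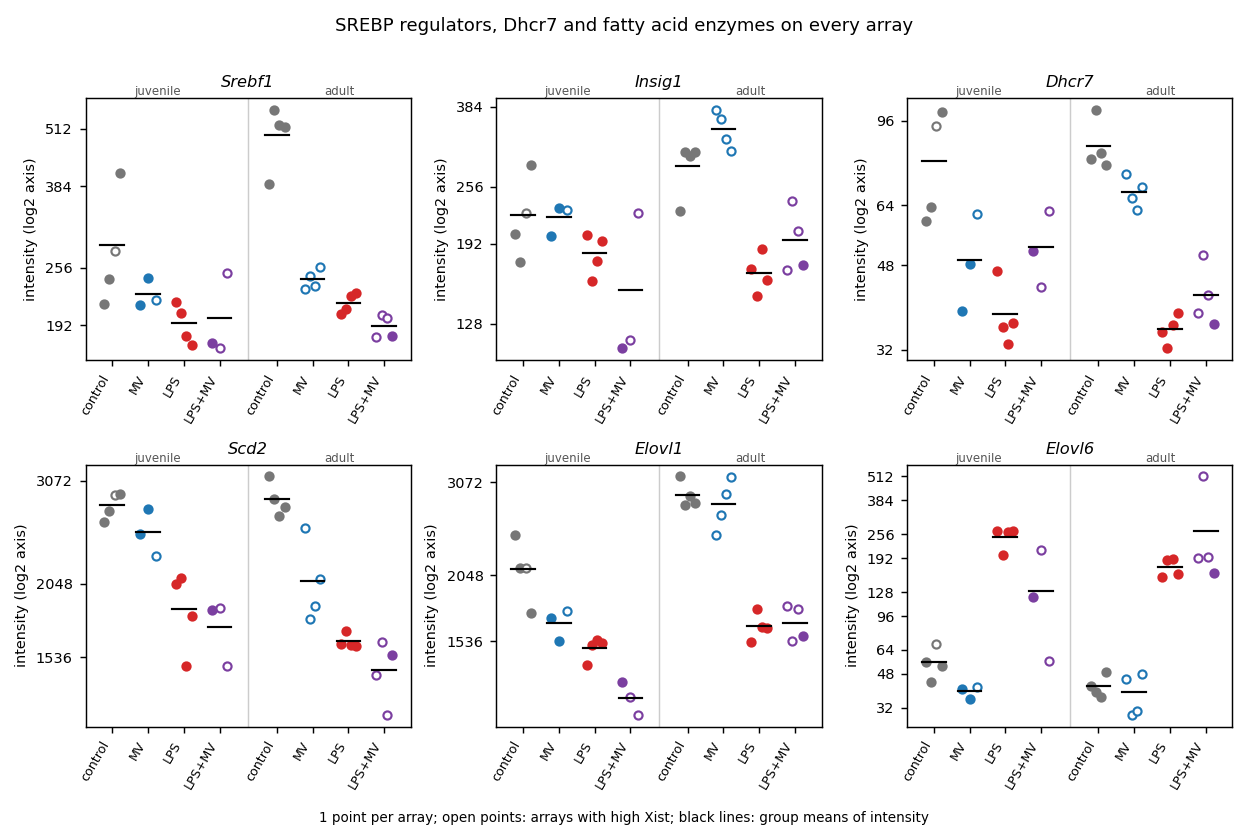
Intensity (log2 axis) of Srebf1, Insig1, Dhcr7, Scd2, Elovl1 and Elovl6 on each of 30 arrays by group, with open points for high Xist and black lines for group means. Elovl6 stands at 153 to 266 on all LPS arrays against 36.3 to 69 on all controls, and Scd2, Dhcr7 and Elovl1 stand lower with LPS than in controls of the same age.

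After LPS and ventilation in adults, 5 sterol enzymes stood higher than in controls, and most regulators and several desaturases and elongases lower. Of 34 genes, 7 rose and 11 fell against control, where 42.1% of all genes passed (14.8% rose and 27.3% fell). Pmvk had 418, 258, 438 and 335 and Cyp51 had 225, 209, 268 and 202, each above every adult control, with rises of 1.03 ± 0.26 (adjusted p = 0.0019) and 0.92 ± 0.17 (8.2e-05). Mvd, Fdft1 and Msmo1 rose by 0.73, 0.57 and 0.50, and the Msmo1 call was lost without LPS+MV replicate 3 (0.41, adjusted p = 0.059). Srebf1 had 181, 202, 199 and 182, a change of -1.24 ± 0.13 (adjusted p = 1.5e-08). Scd2 had 1432, 1632, 1225 and 1551, a change of -0.96 ± 0.11 (adjusted p = 5.2e-08). Elovl1 had 1789, 1534, 1766 and 1571, a change of -0.79 ± 0.08 (adjusted p = 2.6e-08). The last 3 genes had no LPS+MV array inside the control range.

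Fads1 (-0.72), Dhcr7 (-0.67), Insig1 (-0.48), Fads2 (-0.46), Mvk (-0.39), Elovl5 (-0.34), Srebf2 (-0.30) and Scap (-0.28) fell too, and Insig2 rose by 0.21. The second probe sets of Mvk and Srebf2 read -0.07 each, and Srebf2 did not pass with the mean over probe sets. The call of Insig2 was lost without control replicates 1 or 2 or LPS+MV replicate 1 (0.19 in each case, adjusted p up to 0.063) and that of Scap without control replicate 2 (-0.25, adjusted p = 0.061). With the term for high Xist, which 3 of the 4 LPS+MV arrays and no control had, Fdft1 (0.28 ± 0.12, adjusted p = 0.083), Msmo1 (0.20 ± 0.16, 0.36) and Scap (-0.28 ± 0.11, 0.058) did not pass, and 15 of the 18 calls remained, where 31.4% of all genes passed. Elovl6 had 192, 511, 195 and 160, a rise of 1.88 ± 0.24 (3.68-fold, adjusted p = 3.7e-07), in which replicate 2 stood far above the others.

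That array also carried fat cell transcripts. Adipoq, the adipocyte hormone adiponectin, stood at 2146 on adult LPS+MV replicate 2 and at 182, 588 and 809 on the others of its group, with 259 to 293 in adult controls. Ucp1 and Cidea, of brown fat, stood at 669 and 436 there against at most 44.1 and 59.9 on the other 3. The mean log2 level over 6 of 9 listed adipocyte markers reached 8.93 on that array, against 5.97 to 6.96 over all other groups. Fasn stood at 1588 against 521 to 654 on the other 3, Acly at 2001 against 893 to 982, Me1, malic enzyme, at 881 against 335 to 370, and Acaca at 497 against 167 to 207. With that array none of these 4 passed. Without it Fasn fell by 0.76 ± 0.12 on the log2 scale (adjusted p = 1.4e-05), Acaca by 0.57 ± 0.10 (9.5e-05) and Acly by 0.49 ± 0.08 (3.2e-05), and Me1 read -0.13 ± 0.09 (0.25). Elovl6 then rose by 1.54 ± 0.19 (adjusted p = 4.0e-07).

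Ventilation after LPS, set against LPS alone in adults, raised 8 of the 34 genes and lowered none (13 higher and 1 lower at an unadjusted p under 0.05 in limma), where 7.04% of all genes passed (3.69% rose and 3.35% fell). All 8 were sterol enzymes, whose median was 0.45 against -0.02 over all genes. Groups did not overlap for 12 of the 17, against 16.4% of all genes. Hmgcs1 had 608, 551, 663 and 455 with LPS and 968, 1082, 1114 and 874 with LPS+MV, a rise of 0.80 ± 0.16 (adjusted p = 0.0024) with no overlap. Fdps rose by 0.94 ± 0.18, Msmo1 by 0.86 ± 0.16, Sqle by 0.80 ± 0.15, Cyp51 by 0.79 ± 0.17, Fdft1 by 0.70 ± 0.13, and Lss and Nsdhl by 0.45 each. The Lss call was lost without LPS+MV replicate 3 (adjusted p = 0.051), and that of Nsdhl without LPS replicates 2, 3 or 4 or LPS+MV replicate 2 (up to 0.087).

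Here too 3 of the 4 LPS+MV arrays had high Xist and no LPS array did. With the term for high Xist no member passed in limma (8 were higher at an unadjusted p under 0.05), 1.88% of all genes did, and the median over the sterol enzymes was 0.26. The single LPS+MV array with low Xist had a mean log2 level of 7.87 over the sterol enzymes, against 7.41 to 7.54 on the LPS arrays and 7.96 to 8.07 on the high-Xist arrays. Over low-Xist arrays, 1 against 4, with the lone array assumed to vary like the others, Cyp51 (0.66 ± 0.13, adjusted p = 0.019) and Msmo1 (0.70 ± 0.16, adjusted p = 0.046) rose, where 1.12% of all genes passed, and the median was 0.36.

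Against MV alone, adult LPS+MV lowered 13 genes and raised Elovl6, by 1.95 ± 0.24, where 17.4% of all genes passed (12% rose and 5.34% fell). Elovl1 (-0.73), Insig1 (-0.73), Hmgcs1 (-0.65), Msmo1 (-0.55), Scd2 (-0.49), Dhcr7 (-0.45) and Fads1 (-0.40) were among those that fell. The falls of Pmvk (-0.80), Msmo1, Sqle (-0.44), Hsd17b7 (-0.33), Lss (-0.31) and Mvk (-0.23) were lost without 1 array or another, Pmvk without MV replicate 1 (-0.60, adjusted p = 0.13) and Msmo1 without MV replicate 3 or LPS+MV replicate 4 (0.056 for both). This comparison, the one with LPS and the one with control share the LPS+MV arrays. The effect of LPS and that of ventilation departed from a sum for Srebf1 alone, by 0.79 ± 0.18 (adjusted p = 0.01, where 7.16% of all genes passed, 5.5% upward and 1.66% downward): each treatment by itself brought it close to the level of both together.

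Juvenile LPS+MV raised 4 genes and lowered 9 against control, where 31.3% of all genes passed (10.8% rose and 20.5% fell). Elovl1 had 2435, 2108, 2117 and 1740 in controls and 1283, 1205 and 1115 with LPS+MV, a change of -0.78 ± 0.09 (adjusted p = 2.0e-07). Mvd had 94.3, 89.6 and 192, all above the controls, a rise of 0.76 ± 0.14 (adjusted p = 1.6e-04). Scd2 had 1851, 1862 and 1483, all below the controls, a change of -0.68 ± 0.11 (adjusted p = 4.8e-05). These 3 calls held when any 1 array was left out.

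Other calls were lost without single arrays. Elovl6 had 120, 213 and 55.8 and rose by 0.77 ± 0.25 (adjusted p = 0.021), but replicate 3 lay within the controls and the value without replicate 2 was 0.41 (adjusted p = 0.25). Fdft1 had 239, 170, 303 and 231 in controls and 290, 289 and 497 with LPS+MV and rose by 0.53 ± 0.15 (adjusted p = 0.0065), but read 0.29 without replicate 3 (adjusted p = 0.12). Fasn had 815, 871, 971 and 1217 in controls and 569, 683 and 690 with LPS+MV. It fell by 0.55 ± 0.21 on the log2 scale (adjusted p = 0.049), lost without any 1 of 6 arrays (up to 0.17). Replicate 3 had the highest values of the group for Pmvk (599), Cyp51 (288), Idi1 (650) and Mvd, and had high Xist. It had a mean of 8.17 over the sterol enzymes, against 7.77 on the other high-Xist array and 7.80 on the low-Xist one.

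Of the remaining calls, Insig1 (-0.50), Srebf1 (-0.44), Fads1 (-0.39), Dhcr7 (-0.39), Mvk (-0.29) and Ebp (-0.26) fell and Acsl4 (0.36) rose. Those of Insig1, Srebf1, Dhcr7 and Ebp were lost without 1 array or another, at adjusted p up to 0.12, 0.092, 0.074 and 0.11. In a fit of only these 2 groups, 6 of the 13 calls remained (Mvk, Mvd, Fasn, Scd2, Elovl1 and Fads1). Neutrophil markers stood at 9.23 to 9.40 in juvenile LPS+MV, above every juvenile control, and their part was not tested.

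Ventilation after LPS in juveniles changed 5 genes relative to LPS, where 15.4% of all genes passed (5.97% rose and 9.45% fell): Pmvk (1.03), Fdps (0.65) and Acsl4 (0.32) rose, and Elovl6 (-0.91) and Elovl1 (-0.31) fell. All 5 calls were lost without LPS+MV replicate 3, where Pmvk read 0.59 (adjusted p = 0.16) and Elovl6 -0.53 (0.19). Relative to MV, 3 genes rose and 3 fell, where 14.7% of all genes passed (6.93% rose and 7.78% fell). Elovl6 (1.07), Mvd (0.77) and Srebf2 (0.35) rose, and Scd2 (-0.53), Insig1 (-0.50) and Elovl1 (-0.46) fell. Without LPS+MV replicate 2 Elovl6 read 0.71 (adjusted p = 0.089), and the calls of Srebf2 and Insig1 were lost without 1 array or another, at adjusted p up to 0.13 and 0.2. In a fit of only these 2 groups, Scd2 and Elovl1 remained. LPS and ventilation departed from a sum for Fads1 (0.77 ± 0.15, adjusted p = 0.0097) and Dhcr7 (0.71 ± 0.16, adjusted p = 0.026), where 0.749% of all genes passed (0.336% upward and 0.413% downward). Fads1 had 330, 357 and 408 and Dhcr7 had 51.3, 43.3 and 62.3 with both treatments. The Dhcr7 departure was lost without any 1 of 6 arrays (up to 0.095), and neither remained in a fit of the juvenile groups alone. The change with LPS+MV differed between ages for Srebf1 alone (-0.79 ± 0.19, adjusted p = 0.026, where 2.1% of all genes passed, 0.856% upward and 1.25% downward). The call was lost without any 1 of 6 arrays (up to 0.088) and in a fit of only the groups compared. The Srebf1 age differences with MV, LPS and LPS+MV all subtract the same controls, in which the ages differed by 0.76.

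**Figure D5:**
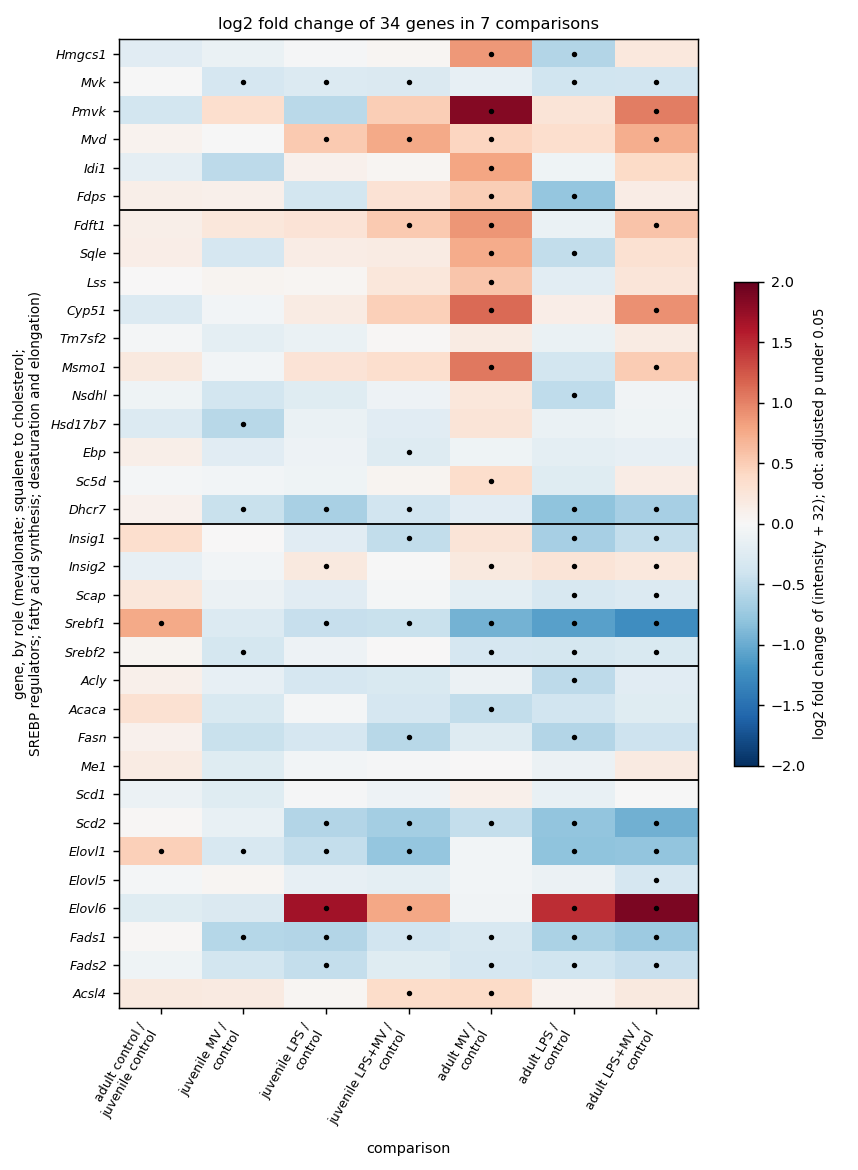
log2 fold change of (intensity + 32) for 34 genes (rows, by role) in 7 comparisons (columns), with a dot where the adjusted p was under 0.05. The red block of sterol enzymes in adult MV, the blue rows of Dhcr7, Srebf1, Scd2, Elovl1 and Fads1 with LPS, and the red row of Elovl6 with LPS and LPS+MV stand out.

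Other genes of these pathways were counted for comparison, in the fit without the term for high Xist. For all genes named below, ventilation in adults cannot be told apart from high Xist, which every adult MV array and no adult control had. This holds for their age differences with MV too. Of 16 other sterol pathway genes tested, of 22 listed, 2 rose and 4 fell in adult MV, 3 rose and 7 fell in adult LPS, and 4 rose and 8 fell in adult LPS+MV. Of all genes, 31.5%, 36% and 42.1% passed in these comparisons, and 7.17% rose in adult MV. Rnf145, a sterol-responsive ubiquitin ligase, fell by 0.75 ± 0.07 on the log2 scale in adult MV (adjusted p = 5.9e-08). Npc1, which moves cholesterol out of lysosomes, fell by 0.84 ± 0.10 in adult LPS (adjusted p = 9.4e-08) and by 0.71 ± 0.10 in juvenile LPS (2.1e-06).

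Of 30 other fatty acid and lipid synthesis genes tested, of 36 listed, 4 rose and 8 fell in adult MV, and 5 rose and 9 fell in adult LPS, where 31.5% and 36% of all genes passed. In adult MV the acyl-CoA ligase Acsl3 rose by 0.85 ± 0.12 (adjusted p = 1.2e-05), and its change differed between ages by 0.82 ± 0.18 (0.007). Lpcat1, which remodels surfactant phospholipid, fell by 0.78 ± 0.08 in adult MV (adjusted p = 3.3e-07) and by 1.07 ± 0.08 in adult LPS+MV (7.8e-11). Hacd2, a dehydratase of fatty acid elongation, rose by 0.79 ± 0.07 in adult LPS (adjusted p = 3.8e-09).

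Among 8 of 9 listed LXR and oxysterol genes, Ch25h, which makes the oxysterol that blocks SREBP processing, rose by 3.94 ± 0.24 in adult LPS (adjusted p = 4.5e-13), by 3.42 ± 0.24 in juvenile LPS (7.7e-12) and by 1.65 ± 0.24 in adult MV (1.5e-05). Abca1, the cholesterol exporter that LXR induces, rose by 0.93 ± 0.15 in juvenile MV (adjusted p = 5.7e-04) and fell by 0.39 ± 0.14 in adult MV (0.038). Its change differed between the ages by -1.32 ± 0.21 (adjusted p = 8.1e-04). Mylip, the LXR-induced ubiquitin ligase of lipoprotein receptors, rose by 0.69 ± 0.11 in juvenile MV (adjusted p = 4.1e-04), fell by 0.47 ± 0.10 in adult MV (0.0011) and differed between ages by -1.16 ± 0.15 (7.8e-05).

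The sterol enzymes also varied together between animals of a group. After the group means were removed, the median correlation between 2 of them over the 30 arrays was 0.47 (136 pairs, from -0.38 to 0.92). It was 0.32 over 66 pairs of fatty acid enzymes and 0.04 over all pairs of genes. Pairs share arrays and high-Xist arrays among them. By the median correlation with the other sterol enzymes, Idi1 and Sqle (0.69 each) and Cyp51 (0.68) were most like the rest, and Ebp (-0.16), Mvk (0.09) and Pmvk (0.20) least. Over the 8 group means the median correlation was 0.63 among sterol enzymes, 0.34 among fatty acid enzymes and 0.03 among all genes.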

How the data were processed

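Whole-lung RNA of 30 mice in 8 groups was measured on 1-colour arrays. The deposited values are probe set intensity on a linear scale, normalized between arrays by the authors (array medians of 21.6 to 22.8); MAS5 is named in the submitters' processing notes, and the method of normalization is not given in the sources used here. Gene symbols came from the platform annotation: 34945 of 45037 probe sets carried 1 symbol, 932 several and 9160 none that is listed. Of these, 34741 had an identifier in the RefSeq gene table, which changed none of the symbols.

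Probe sets above the median of the array on 3 or more arrays were kept, and values were taken as log2(intensity + 32). A single model of all 8 groups was fitted by limma 3.58.1, under R 4.3.3, using its trended prior, with 22 residual and 4.87 prior degrees of freedom, and gave 16 comparisons. Tests were two-sided, with a Benjamini-Hochberg adjusted p under 0.05 as the threshold. The test was checked on simulated data. Figures were drawn with matplotlib 3.10.9.

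The members, the other gene and marker lists and the rule on which genes to name were all chosen with earlier results of these data known. Values on every array are given for members that passed with an absolute change of at least 0.5, at most 6 in a comparison. Up to 4 genes of each other list are named among those that passed with the largest changes. Each array is a separate animal, and precision is limited by how few there are in a group. The alternatives tried were array weights, a fit of only the groups compared, no trend, averaging a gene's probe sets, no filter, a pseudocount of 1, quantile normalization, the replicate number as a block, a term for high Xist and leaving out each array. The use of low-Xist arrays alone was added after seeing the data.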

Additional observations from a re-analysis of the deposited data

Results flagged for a closer look

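Over the 34 genes and the 6 groups of 4 animals, 11 of 204 tests of the highest or lowest animal, on the log2 scale, found one far from the others, where chance gives about 1 in 20. Adult LPS+MV replicate 2, the array with the high fat cell transcripts, stood at 2001 for Acly, against 893 to 982 on the others, at 881 for Me1, against 335 to 370, and at 511 for Elovl6, against 160 to 195. On replicate 3 of that group Fads2 stood at 63.2, against 86.8 to 91.5. Adult LPS replicate 2 stood at 64.7 for Fdps, against 114 to 125, at 252 for Sc5d, against 290 to 295, and at 1701 for Scd2, against 1604 to 1618. Juvenile LPS replicate 2 stood at 199 for Elovl6, against 264 to 266, and at 330 for Insig2, against 271 to 280. Fdft1 stood at 263 on juvenile LPS replicate 4, against 291 to 296, and Insig1 at 227 on adult control replicate 1, against 300 to 306.

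Differences between effects passed limma's test of the difference itself. With age and MV they were 0.99 for Hmgcs1 (adjusted p = 0.013), 1.49 for Pmvk (0.019), 1.31 for Idi1 (0.0039), 0.65 for Fdft1 (0.048), 1.07 for Sqle (0.0051), 1.19 for Cyp51 (0.0058), 1.12 for Msmo1 (0.0063), 0.60 for Nsdhl (0.042), 0.80 for Hsd17b7 (0.0063) and -0.66 for Srebf1 (0.034). Srebf1 also differed between ages with LPS (-0.63, adjusted p = 0.046) and with LPS+MV (-0.79, adjusted p = 0.026). LPS and MV departed from a sum for Fads1 (0.77, adjusted p = 0.0097) and Dhcr7 (0.71, adjusted p = 0.026) in juveniles and for Srebf1 (0.79, adjusted p = 0.01) in adults.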

How the results depend on the processing

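Of 2437 values of the 134 calls of members under alternatives, 2116 stayed past the threshold, 321 did not and 0 changed sign. A term for high Xist lost 44 of 134 calls, and a fit on only the groups compared, which has fewer arrays, lost 31. Counts of members that passed moved by over 1.5 times as follows, and the cause was not tested. With the term for high Xist, adult MV went from 19 to 9, adult LPS+MV against LPS from 8 to 0, juvenile LPS+MV against LPS from 5 to 1, the juvenile LPS by MV interaction from 2 to 1, age by MV from 10 to 1 and age by LPS from 1 to 4. Over low-Xist arrays, added after seeing the data, the counts were 5 for the controls, 6 for juvenile LPS+MV, 1 for juvenile LPS+MV against LPS, 0 for the juvenile LPS by MV interaction, 2 for adult LPS+MV against LPS, 4 for age by LPS and 0 for age by LPS+MV. In the fit of only the groups compared they were 0 for juvenile MV, 6 for juvenile LPS+MV, 2 for juvenile LPS+MV against MV, 0 for the juvenile LPS by MV interaction, 13 for adult LPS+MV against LPS, 4 for the adult LPS by MV interaction, 6 for age by MV and 0 for age by LPS+MV. Array weights gave 7 for the controls, 10 for juvenile MV, 16 for juvenile LPS+MV against MV, 6 for the juvenile and 3 for the adult LPS by MV interaction, 13 for adult LPS+MV against LPS, 4 for age by LPS and 3 for age by LPS+MV. The mean over probe sets gave 4 for the controls, 2 for juvenile LPS+MV against LPS, 2 for the adult LPS by MV interaction and 2 for age by LPS. Quantile normalization gave 3 for the adult LPS by MV interaction, and a pseudocount of 1 and no filter each gave 0 for age by LPS.

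The replicate block gave 10 for juvenile LPS+MV against MV and 2 for age by LPS, and lost 1 of 134 calls. The labels do not say whether the replicate numbers pair animals, and pairing was not tested. The median correlation of same-numbered arrays of different groups was 0.031 (99 pairs, from -0.23 to 0.42), and that of differently numbered ones -0.012.

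Without each array in turn, the count ranged from 2 to 6 for the controls, 3 to 8 for juvenile MV, 8 to 12 for juvenile LPS, 8 to 13 for juvenile LPS+MV, 1 to 5 for juvenile LPS+MV against LPS, 4 to 10 against MV and 1 to 3 for their interaction. It ranged from 14 to 18 for adult MV, 18 to 19 for adult LPS, 17 to 21 for adult LPS+MV, 7 to 9 for adult LPS+MV against LPS, 8 to 13 against MV and 1 to 2 for their interaction. It was 6 to 11 for age by MV, 0 to 2 for age by LPS and 0 to 2 for age by LPS+MV. Genes near the array background, such as Dhcr7, Mvk and Elovl6 in controls, have changes that the intensity of the background compresses.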
